A study of Mus musculus with 55 samples.

Results

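The crush effect, the log2 intensity of a crushed optic nerve head (ONH) minus that of its contralateral partner, was compared between 1 week and 3 days after optic nerve crush in the mouse. A positive difference means that the crush effect was higher at 1 week than at 3 days, and a negative difference that it was lower. The comparison rests on 20 of the 55 arrays of the series, chosen by their labels alone, with 5 crushed and 5 contralateral ONH samples at each of the 2 times. Female C57Bl/6 mice aged 6 to 8 weeks had the left optic nerve crushed for 10 seconds at a distance of 1 mm behind the globe, while the right nerve was not operated on. Each array held the pooled RNA of 2 ONHs, and the left and right eyes of the same 2 mice gave the crushed and the contralateral sample of a pair. Samples were matched by the replicate number in the labels, and that equal numbers mark the same mice is assumed. A difference thus compares 5 pairs of one set of mice with 5 pairs of another. Contralateral ONHs thus come from mice that had surgery on the other eye. Naïve mice without surgery, with 5 arrays, served as a further background.

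The mouse ONH, or glial lamina, is the place where the unmyelinated axons of the retinal ganglion cells leave the eye between astrocyte processes, with microglia, vessels and the first myelinating oligodendrocytes nearby. A crush cuts these axons off from their distal parts, and the stumps on the eye side swell and are lost over days to weeks. Injured nervous tissue typically passes from an early phase of stress transcription factors, cytokines and invading leukocytes, through cell division of glia and phagocytes, to a later phase of debris clearance and matrix deposition.

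The transcripts of the labelled tissue were present on all 20 arrays. In the group where each was lowest, the astrocyte filament gene Gfap had intensities of 7774 to 9478 (crushed, 1 week), the astrocyte water channel Aqp4 of 3737 to 5773 (crushed, 3 days) and the myelin gene Mbp of 9520 to 11250 (crushed, 1 week). Array medians lay between 459 and 554, and the mean correlation of an array with the others of its group was 0.952 to 0.986 across probe sets. Photoreceptor transcripts differed between arrays of every group, and the mean log2 level of 18 such genes ranged from 5.35 to 12.1. It was above 11 in the contralateral sample of pair 3 and the crushed sample of pair 2 at 3 days, and in the contralateral sample of pair 4 and the crushed sample of pair 5 at 1 week. None of the 18 genes passed the test of the difference. Since these are bulk samples, fewer cells of a type and less RNA per cell cannot be told apart in any value given here.

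Between 3 days and 1 week the crush effect became lower for more genes than it became higher. Calls required both a limma p-value under 0.05 after Benjamini-Hochberg adjustment and a change of at least 1 on the log2 scale, or 2-fold. Of 19313 probe sets tested, 394 (2.04%) had a lower crush effect at 1 week and 208 (1.08%) a higher one. With 1 probe set for each of 10763 genes these were 243 genes (2.26%) and 101 genes (0.938%). At 3 days the crushed ONHs were above their partners in 1274 probe sets (6.6%) and below them in 424 (2.2%), and at 1 week in 1199 (6.21%) and 681 (3.53%). The pair values at 1 week lay wholly below those at 3 days in 293 of the 394 probe sets, and wholly above them in 119 of the 208. Over all 19313 probe sets they lay wholly below in 950 (4.92%) and wholly above in 339 (1.76%). The share of higher calls was 34.6% as deposited and 45.1% (256 higher and 312 lower) with array medians made equal, a step that moved the median effect of all probe sets at 3 days from 0.04 to -0.09. At 3 days alone the share, 1274 of 1698, became 62.2% by that step and 63.5% by quantile normalization.

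**Figure D1:**
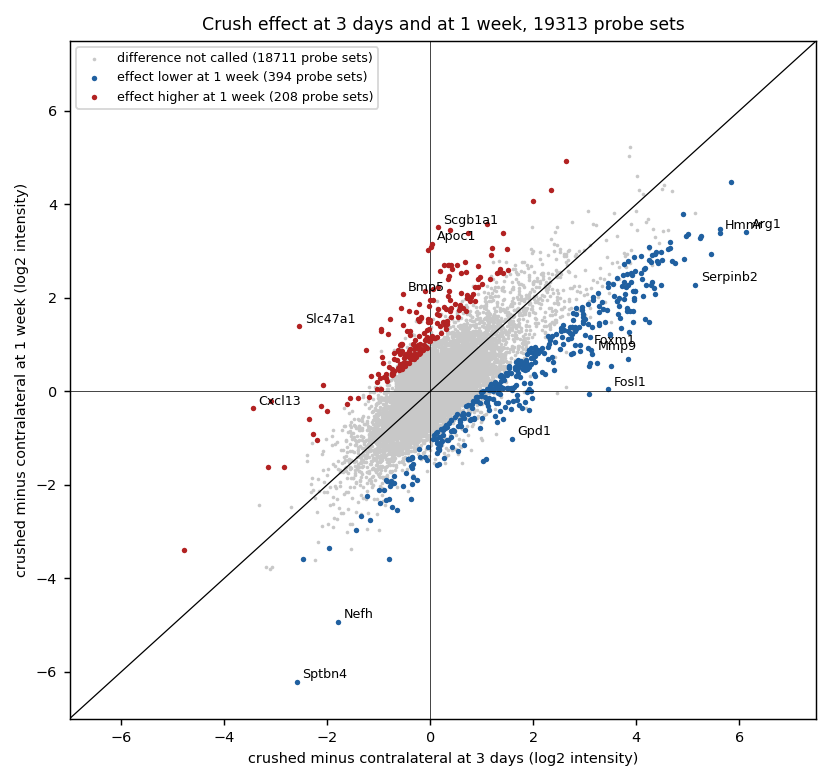
Crush effect (crushed minus contralateral, log2 intensity) at 3 days on the x axis and at 1 week on the y axis, 1 point for each of 19313 probe sets, with 394 called lower in blue, 208 called higher in red and the others in grey. The diagonal marks an equal effect at both times, and most blue points sit to the right of 0, where crushed ONHs were above their partners at 3 days.

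The calls fell into a few patterns. Among the 394 lower probe sets, 145 were above the contralateral side at 3 days and no longer called at 1 week, and 133 were above it at both times but less so at 1 week. A further 54 had no call at 3 days and lay below the contralateral side at 1 week, 53 were called at neither time alone, and 8 lay below it at both times, more so at 1 week. Among the 208 higher probe sets, 103 had no call at 3 days and were above the contralateral side at 1 week, 69 were called at neither time alone, 16 were below it at 3 days and not called at 1 week, and 15 were above it at both times, more so at 1 week. The remaining 4 were below it at both times but less so at 1 week. They represent Ntsr2, a neurotensin receptor of astrocytes, Nppc, which encodes C-type natriuretic peptide, the retinol carrier Rbp4 and the plasminogen-binding lectin Clec3b, the last 3 named after their values were seen. Only 2 probe sets were called in opposite directions at the 2 times, Slc47a1 and Gpd1.

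Slc47a1, which encodes an extruder of organic cations, had the largest rise of the crush effect among named genes. Its intensities at 3 days were 806, 751, 532, 349 and 496 in contralateral and 100.2, 69.1, 82.6, 201 and 72.1 in crushed ONHs, and at 1 week 355, 182, 437, 315 and 568 and 1160, 598, 1688, 646 and 827. Every crushed sample lay below every contralateral one at 3 days and above every one at 1 week. The effect went from -2.54 to 1.39, a difference of 3.93 ± 0.53 (SE, adjusted p = 0.000347, limma), and the naïve range was 156 to 1175. Gpd1, the cytosolic glycerol 3-phosphate dehydrogenase, took the opposite course. Its contralateral intensities were 1436, 1082, 685, 908 and 810.3 at 3 days and 1037, 961, 1756, 572 and 626 at 1 week, against 3031, 3488, 2524, 2432 and 3006 and 413, 699, 770.4, 250.2 and 332 in crushed ONHs. The crushed samples were all above their partners at 3 days and all below them at 1 week, with a difference of -2.61 ± 0.33 (adjusted p = 0.000215).

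The differences came for the most part from the crushed side. In crushed ONHs alone 555 probe sets (2.87% of 19368) were higher and 524 (2.71%) lower at 1 week than at 3 days, whereas contralateral ONHs had 3 higher (0.0155%) and 8 lower (0.0413%). Without pair 2 at 1 week the contralateral counts were 23 higher and 18 lower. The crushed ONHs moved further than the contralateral ones in 385 of the 394 lower and in 198 of the 208 higher probe sets. The median shift was -1.34 in crushed and 0.07 in contralateral ONHs for the lower set, and 1.46 and 0.06 for the higher set. In 317 and 172 of them the crushed side alone also passed the test.

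**Figure D2:**
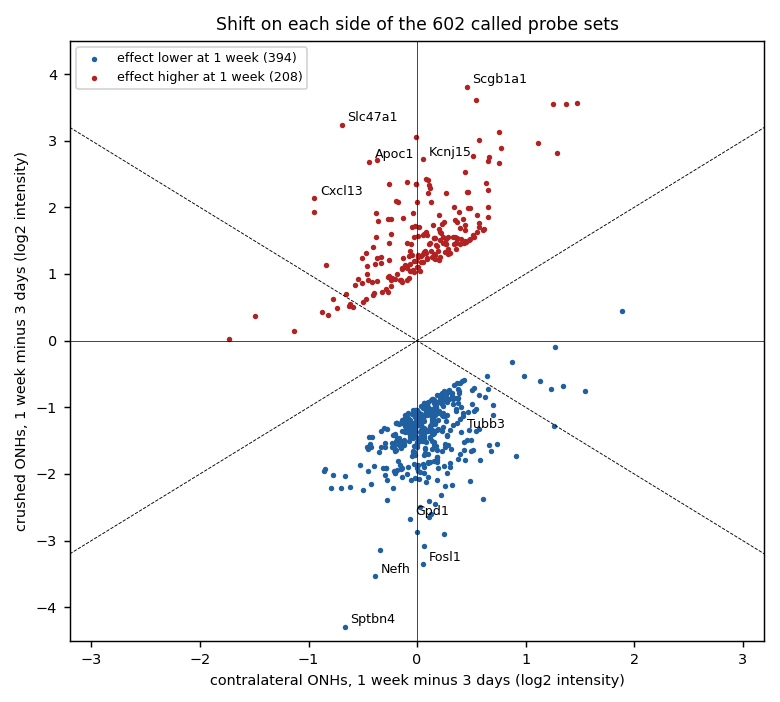
Shift from 3 days to 1 week in contralateral ONHs (x axis) and in crushed ONHs (y axis), both in log2 intensity, for the 394 probe sets with a lower (blue) and the 208 with a higher (red) crush effect at 1 week. Points between the dashed lines and the vertical axis moved more on the crushed side, as 385 of the blue and 198 of the red did.

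A few genes were an exception. Ccr2, the chemokine receptor of circulating monocytes, had intensities of 3175, 2882, 2538, 2452 and 2642 in crushed ONHs at 3 days and 2523, 1929, 3047, 3018 and 2464 at 1 week, ranges that overlap. The contralateral ONHs rose from 135, 390.3, 149, 195 and 137 to 502, 258, 679, 418 and 471, a shift of 1.28 (adjusted p = 0.0152), and the naïve range was 169.6 to 519.7. The lower crush effect of Ccr2 (-1.36 ± 0.28, adjusted p = 0.00544) thus rested on the contralateral side, and the other 2 probe sets of the gene were not called. The 3 probe sets that were higher on the contralateral side at 1 week represent Ccr2, the small GTPase Rasd2 and 1 probe set without a symbol, named after their values were seen.

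Genes of the cell cycle had the most uniform course. Of 43 measured genes of mitosis, 36 had a lower crush effect at 1 week, none a higher one, and 7 did not pass. The median of the 43 differences was -1.48, against -0.06 over all genes tested, where 2.26% were called lower. The effect remained well above 0, with a median of 3.84 at 3 days and 2.29 at 1 week. At 1 week 37 of the 43 were still called higher than in the contralateral ONHs (703 of 10763 over all genes). The mean log2 level of the list was 10.1 to 10.5 in crushed ONHs at 3 days and 8.84 to 9.13 at 1 week, without overlap, against 6.41 to 7.11 in all contralateral samples and 6.48 to 6.70 in naïve ONHs. Of 38 measured genes of DNA replication, 20 had a lower crush effect at 1 week and none a higher one, with a median of -1.03. Their median effect in single pairs was 1.24 to 1.84 at 3 days and 0.23 to 0.66 at 1 week.

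The count for mitosis was 34 with the photoreceptor level of each array as a covariate and 22 without the 4 pairs that hold a photoreceptor-rich array, and the count for DNA replication was 19 and 17. Without pair 3 at 1 week the replication count was 12. The direction held in all of these.

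Hmmr, a receptor for hyaluronan that also binds the mitotic spindle, fell the most within the mitosis list. Its intensities were 1935, 1564, 1565, 1357 and 2473 in crushed ONHs at 3 days and 588, 593, 510.5, 587 and 665 at 1 week, while contralateral samples stayed within 20 to 52.8 and 10.4 to 139.8. All crushed samples at 1 week were below all crushed samples at 3 days and above every contralateral one. The difference was -2.23 ± 0.47 (adjusted p = 0.00719). Foxm1, a transcription factor of genes expressed in G2 and mitosis, went from a range of 254 to 399 at 3 days to one of 45.9 to 103 at 1 week in crushed ONHs, and its difference was -2.15 ± 0.35. The spindle kinase Aurka had crushed intensities of 819, 699, 681, 613 and 814 at 3 days and 169, 166, 138, 193 and 199 at 1 week. Its difference of -2.08 ± 0.33 (adjusted p = 0.00124) and that of the kinetochore gene Ndc80, at -1.97 ± 0.34, were among the 4 largest of the list. At 1 day, before either time, the crush effect on Foxm1 and Aurka was only 0.78 and 0.58, and at 3 weeks it was 0.08 and 0.30, so that 3 days held the highest of the 4 values.

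Outside the lists, 3 further genes of dividing cells were among the 15 largest falls of genes whose pairs do not overlap between the times. They were Iqgap3, a scaffold protein of dividing cells (-2.16 ± 0.27), Cdca5, which encodes the cohesin regulator sororin (-2.15 ± 0.41), and the Fanconi pathway enzyme Ube2t (-2.26 ± 0.36). For each the 5 crushed samples at 1 week lay below the 5 at 3 days, and for Cdca5 the ranges were 519 to 866 and 171 to 259.

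The replication genes were led by Chaf1b, a subunit of the factor that loads histones onto new DNA, with crushed intensities of 632, 336, 258, 211 and 417 at 3 days and 87.8, 103, 53.2, 102 and 67.4 at 1 week. Its difference was -2.59 ± 0.41 (adjusted p = 0.00124). Chtf18, which is on no list and belongs to a clamp loader of sister chromatid cohesion, stood at 437, 355, 229, 229 and 352 and then at 57.1, 63.2, 47.1, 66.9 and 66.6, a difference of -2.98 ± 0.51. The helicase subunit Mcm5 (-1.94 ± 0.41) and Pole, the catalytic subunit of DNA polymerase epsilon (-1.96 ± 0.49), followed. Pole lost its call without the 4 photoreceptor-rich pairs (-2.15, adjusted p = 0.0506). Thymidine kinase Tk1 fell from a range of 1195 to 2594 at 3 days to one of 424 to 518 at 1 week on the crushed side, and its difference of -1.60 ± 0.45 (adjusted p = 0.0287) lost the call under 5 of 21 alternatives, in which it ranged from -1.84 to -1.41 and the adjusted p reached 0.0856. Chaf1b and Mcm5 had crush effects of 3.43 and 3.37 at 1 day, beside 3.86 and 3.11 at 3 days.

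Among 16 measured genes of G1 control, 3 (18.75%, against 2.26% over all genes) had a lower effect and 1 (6.25%, against 0.938%) a higher one. Ccne1, cyclin E1, which drives entry into S phase, went from a range of 316 to 905 at 3 days to one of 136 to 211 at 1 week, in crushed ONHs, and had a difference of -1.95 ± 0.39 (adjusted p = 0.00493). The transcription factors E2f1 and E2f3, at -1.29 and -1.31, lost their calls under 15 of 21 and 12 of 21 alternatives with adjusted p of up to 0.131 and 0.105. Without the photoreceptor-rich pairs 1 member was called, with a lower effect. Cdkn1c, which encodes the cyclin-dependent kinase inhibitor p57, moved the other way. Its crushed intensities of 231, 192, 299, 263 and 315 at 3 days lay below all contralateral ones (464 to 584), and those of 599.8, 724, 869, 1025 and 695 at 1 week overlapped the contralateral range of 562 to 979. The difference was 1.07 ± 0.28, and it lost the call under 6 of 21 alternatives, in which it ranged from 0.83 to 1.23 with adjusted p of up to 0.117.

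The promoters of these genes, windows of 300 bases around the start of each gene in RefSeq (build GRCm38.p6), were searched on both strands for 3 kinds of element known from cell cycle genes. These are the CCAAT box, the cell cycle homology region (CHR, searched as TTTGAA or TTCGAA) and the E2F site (TTTCCCGC, TTTGGCGC or TTTCGCGC). Of 43 mitosis genes, 35 had a sequence, in 37 windows, and 75.7% of the windows held a CCAAT box, 75.7% a CHR and 67.6% both. Over the 11160 windows of 8634 tested genes these shares were 37.2%, 13.9% and 5.51%. For 32 replication genes with 37 windows the shares were 56.8%, 16.2% and 10.8%, and 32.4% of the windows held an E2F site, against 2.7% for mitosis and 3.23% over all. Such matches describe these letters and show no binding. The windows of 2 mitosis genes with both elements and of 1 replication gene with an E2F site are printed here from 5′ to 3′ on the strand of the gene, with the elements in capitals. In Mcm5 2 E2F matches overlap each other.
Hmmr, chr11:40733388-40733687, minus strand: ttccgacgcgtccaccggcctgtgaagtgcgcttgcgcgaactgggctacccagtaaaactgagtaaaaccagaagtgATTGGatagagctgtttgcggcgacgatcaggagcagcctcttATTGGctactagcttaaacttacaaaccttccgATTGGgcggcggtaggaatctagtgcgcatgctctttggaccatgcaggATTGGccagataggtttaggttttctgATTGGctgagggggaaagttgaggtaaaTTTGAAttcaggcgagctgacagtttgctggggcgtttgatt
Aurka, chr2:172370521-172370820, minus strand: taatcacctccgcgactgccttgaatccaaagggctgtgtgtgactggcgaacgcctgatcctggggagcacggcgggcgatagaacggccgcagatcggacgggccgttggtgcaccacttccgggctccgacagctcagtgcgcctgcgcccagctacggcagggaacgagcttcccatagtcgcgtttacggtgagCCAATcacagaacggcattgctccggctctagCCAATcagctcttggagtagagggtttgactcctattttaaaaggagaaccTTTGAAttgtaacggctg
Mcm5, chr8:75109259-75109558, plus strand: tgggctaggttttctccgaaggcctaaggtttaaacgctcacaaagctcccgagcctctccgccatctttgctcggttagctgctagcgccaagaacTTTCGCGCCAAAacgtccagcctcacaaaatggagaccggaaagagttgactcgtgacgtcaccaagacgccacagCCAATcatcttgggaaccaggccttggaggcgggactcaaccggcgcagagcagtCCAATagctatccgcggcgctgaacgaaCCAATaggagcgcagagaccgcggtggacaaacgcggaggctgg
The Hmmr window holds 5 CCAAT boxes, all read on the opposite strand as ATTGG, and 1 CHR, and that of Aurka 2 CCAAT boxes and 1 CHR near the start. The Mcm5 window holds 3 CCAAT boxes and 2 E2F sites and no CHR. Among windows not printed, those of the replication genes Chaf1b and Tk1 hold none of these elements. That of the mitosis gene Ndc80 holds 1 CHR and no CCAAT box.

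Some acute cytokines and chemokines, and 1 stress transcription factor, also had a lower crush effect at 1 week. Among 21 measured acute cytokines and chemokines, 4 (19.0%, against 2.26% over all genes) had a lower effect at 1 week, none a higher one, and 17 did not pass, with a median difference of -0.75. Il6, the cytokine interleukin 6, stood at 229, 145, 184, 129 and 95.2 in crushed ONHs at 3 days and at 12.5, 31.5, 31, 77.4 and 66.4 at 1 week. Its contralateral values, all at most 16.4, lay below the floor of 20 that was set before the log2 step, so each entered at the floor. The difference was -1.91 ± 0.37 (adjusted p = 0.00368), and without a floor it was not called (adjusted p = 0.269). Il11, a cytokine of the same family, went from a range of 168 to 443 at 3 days to one of 79.1 to 111 at 1 week with a difference of -1.75 ± 0.35, and Clcf1, another ligand of that family, from a range of 273 to 637 at 3 days to one of 62.6 to 92.5 at 1 week. The difference of Clcf1 was -1.42, while its contralateral ONHs shifted by -0.79 without a call. The chemokine Ccl7, at -2.28, lost its call under 11 of 21 alternatives, in which the difference ranged from -3.01 to -1.88 and the adjusted p reached 0.111. Without pair 4 at 1 week, in which the crushed Ccl7 value was 1110, the list had 9 lower members in place of 4, and without the 4 photoreceptor-rich pairs also 9.

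Among 29 immediate early and stress factors only 1 passed (3.45%, against 2.26% called lower over all genes). It was Fosl1, an AP-1 transcription factor induced by injury and growth factors. Its crushed intensities of 419.8, 369.9, 129.9, 153 and 205 at 3 days became 23, 9.56, 21.9, 23.4 and 23.8 at 1 week, near the floor and overlapping the contralateral range of 14.7 to 29.1. Without the 4 photoreceptor-rich pairs 5 members of the list were called lower. The crush effect had been 6.16 at 1 day and was 3.46 at 3 days and 0.04 at 1 week, a difference of -3.42 ± 0.35 (adjusted p = 3.09e-05). Ereg, the EGF receptor ligand epiregulin, had a similar course, with effects of 6.38, 4.17 and 1.54 at the 3 times and a difference of -2.63 ± 0.43. Of the other 12 measured trophic and EGF-family factors 1 passed, and it moved the other way. Each call is 7.69% of the list, against 2.26% lower and 0.938% higher over all genes. Hgf, hepatocyte growth factor, stood at 75.1, 35.6, 65.8, 73.1 and 52.3 in crushed ONHs at 3 days and 187, 152, 137, 231 and 208 at 1 week, with a difference of 1.07 ± 0.27 that lost its call under 5 of 20 alternatives (adjusted p up to 0.0716).

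Of 20 measured genes of recruited monocytes and alternative macrophage activation, 4 (20%, against 2.26% over all genes) had a lower effect and none a higher one. At 1 week 16 of the 20 were still called above the contralateral side (703 of 10763 over all genes). Arg1, arginase 1, a marker of alternative activation, had the largest crush effect of these at 3 days. It stood at 7070, 7263, 4409, 3849 and 6482 in crushed ONHs at 3 days and 1545, 494, 516, 1225 and 1443 at 1 week, against 65.3 to 100.4 and 51.8 to 157 in contralateral ONHs. The ranges of the crushed samples do not overlap, and the difference was -2.73 ± 0.31 (adjusted p = 7.14e-05). Gda, guanine deaminase, followed with -1.56 ± 0.37. F13a1, coagulation factor XIII of macrophages, had a difference of -1.17 that was lost under 7 of 21 alternatives (adjusted p up to 0.0943), and Ccr2, described above, was the fourth. As with Ccr2, the contralateral side of F13a1 moved more (0.65) than the crushed side (-0.52). Prtn3, proteinase 3, a granule protease of neutrophils, is on no list and fell from a range of 120 to 784 at 3 days to one of 5.74 to 71.1 at 1 week in crushed ONHs, with a difference of -3.13 ± 0.51. Of its 20 values 10 lay under the floor, 9 of them contralateral, so its difference was computed with the floor in their place. None of 9 measured neutrophil genes was called, and the one with the lowest p was Csf3r, the G-CSF receptor, at 0.86 ± 0.35 (adjusted p = 0.131).

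Of 23 measured proteases and inhibitors, 4 (17.4%, against 2.26% over all genes) had a lower effect and 1 (4.35%, against 0.938%) a higher one. Serpinb2, an inhibitor of plasminogen activators, stood at 1381, 1135, 94.1, 1117 and 1103 in crushed ONHs at 3 days and at 319, 2.89, 105, 43.1 and 292 at 1 week, 1 of which lay under the floor. Pair 3 at 3 days stood far below the others and within the range at 1 week. The difference was -2.88 ± 0.70 (adjusted p = 0.0155), and it was not called without a floor or in a model of the 20 arrays alone (-2.88, adjusted p = 0.09). Mmp9, gelatinase B, went from 1252, 1155, 446, 390.5 and 557 to 221, 62, 285, 341 and 338 with a difference of -2.33 ± 0.56 (adjusted p = 0.0147), and the contralateral sample of pair 4 at 1 week, at 463, stood above every crushed sample of that time. The urokinase receptor Plaur, named after its values were seen, had a difference of -1.21 ± 0.29. Adam8, a leukocyte metalloprotease, had one of -1.36 that was lost under 10 of 21 alternatives (adjusted p up to 0.11). Prss22, a secreted serine protease, is on no list and fell from a range of 113 to 430.2 at 3 days to one of 11.5 to 46.3 at 1 week, a difference of -3.15 ± 0.58. Mmp23, a membrane metalloprotease, moved the other way, from a range of 670.4 to 1990 at 3 days to one of 2374 to 4340 at 1 week in crushed ONHs, with a difference of 1.56 ± 0.30.

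Of 27 reactive astrocyte genes, Lcn2, Tgm1 and Clcf1 (11.1%, against 2.26% over all genes) had a lower effect and none a higher one. Lcn2, the iron-binding lipocalin 2, stood at 8271, 8041, 7097, 7993 and 2510 in crushed ONHs at 3 days and 1653, 1086, 641, 2268 and 907 at 1 week, and its effect of 3.69 at 3 days was 1.58 at 1 week and 3.88 at 3 weeks. The difference of -2.12 ± 0.54 (adjusted p = 0.0187) lost its call in a model of the 20 arrays alone (-2.12, adjusted p = 0.0728). Tgm1, transglutaminase 1, had a difference of -1.90 ± 0.39 (adjusted p = 0.00548). Of 12 heme and iron genes, 2 (16.7%, against 2.26% over all genes) had a lower effect. Lcn2 was 1 of these, and Hmox1, the heme-degrading enzyme heme oxygenase 1, was the other. Its crushed intensities were 4094 to 5704 at 3 days and 1123 to 2243 at 1 week, and the difference of -1.13 ± 0.28 was lost without pair 2 at 1 week, where it fell short of 2-fold (-0.87, adjusted p = 0.0407) and without the photoreceptor-rich pairs (-1.18, adjusted p = 0.0609).

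**Figure D3:**
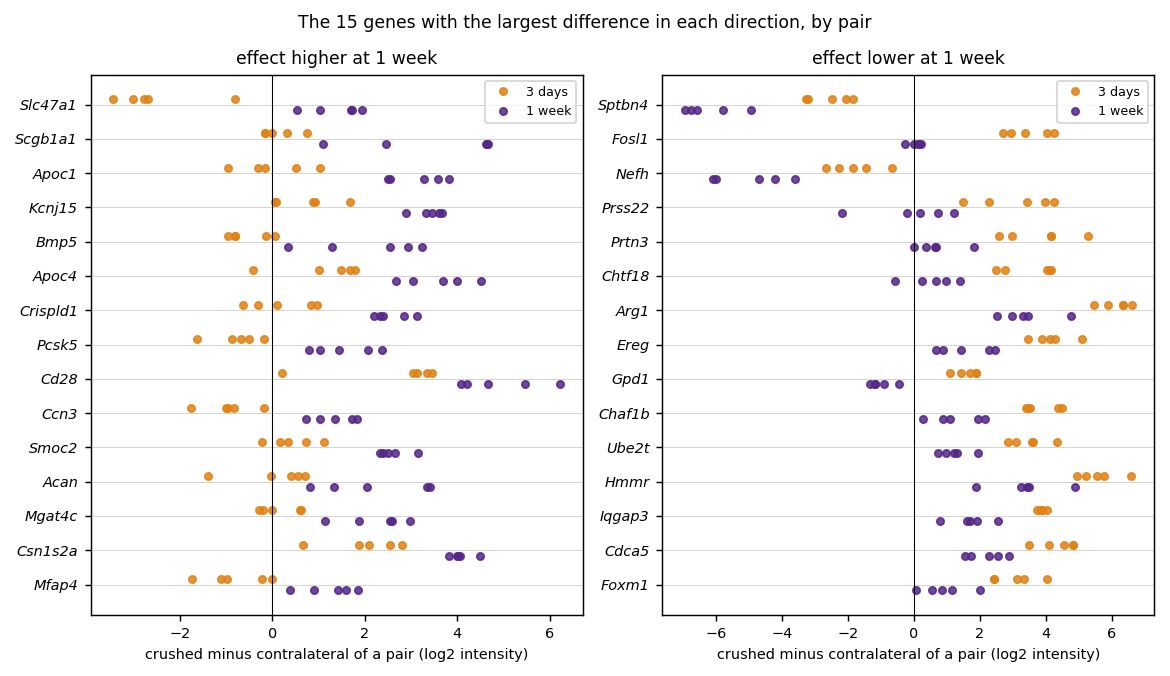
Crushed minus contralateral log2 intensity of each of 5 pairs at 3 days (orange) and at 1 week (purple) for the 15 genes with the largest rise and the 15 with the largest fall of the crush effect among those whose pairs do not overlap between the times. For Fosl1 the pairs at 1 week gather around 0, and for Sptbn4 and Nefh both sets of pairs lie below 0.

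Some genes of axons and ganglion cells lay further below the contralateral side at 1 week than at 3 days. Of 21 measured, 5 (23.8%, against 2.26% over all genes) had a lower effect and 1 (4.76%, against 0.938%) a higher one. The median effect went from -0.78 at 3 days to -1.62 at 1 week. Sptbn4, beta IV spectrin of axon initial segments and nodes of Ranvier, had the largest fall of all genes tested. Contralateral ONHs held 2338, 2422, 2237, 2404 and 2407 at 3 days and 1918, 2182, 2496, 1118 and 623 at 1 week, and crushed ONHs 556, 667, 395, 255 and 246 and then 6.08, 9.86, 10.3, 8.40 and 11.2. All 5 crushed samples at 1 week were thus below the floor of 20. The difference of -3.63 ± 0.34 (adjusted p = 8.04e-06) was computed with the floor in their place. Nefh, the heavy neurofilament chain, stood at 540.1, 1012, 532, 306 and 353 in crushed ONHs at 3 days and 19.2, 94.1, 62.6, 26.3 and 48 at 1 week, against 1482 to 1941 and 588 to 1765. Its difference was -3.15 ± 0.44 (adjusted p = 0.000433), and the contralateral sample of pair 5 at 1 week was the lowest of that group for Nefh and for Sptbn4.

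Other axonal genes started from another level. Tubb3, the neuronal beta tubulin, was above the contralateral side at 3 days, with 2055, 2204, 1700, 1764 and 2901 against 663, 605, 839, 1113 and 984, and at 1 week its ranges overlapped, with 801, 903, 1318, 471 and 763 against 1095, 1407, 1182, 1217 and 685. The difference was -1.78 ± 0.33 (adjusted p = 0.00282). Kif1a, a motor of axonal transport, had a difference of -1.49 ± 0.38 that was lost without pair 1 at 1 week (-1.38, adjusted p = 0.0519) and without the photoreceptor-rich pairs (-1.41, adjusted p = 0.0587). Rph3a, an effector of vesicle release, was the fifth at -1.10, and Gap43, the growth cone protein, the only one with a higher effect, at 1.12, both named after their values were seen. Without pair 5 at 1 week 9 members were called lower, and without pair 1 at 1 week 3 were. The crushed sample of pair 2 at 3 days and the contralateral sample of pair 4 at 1 week were highest in their groups for both the list level and the photoreceptor level. Whether the 2 levels moved together across all arrays was not tested. With the photoreceptor level as a covariate, or without the photoreceptor-rich pairs, 4 members were called lower.

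Myelin genes lay below the contralateral side at both times, with medians of -0.66 and -1.12 over 22 measured members. The number called lower in crushed ONHs was 3 at 3 days and 13 at 1 week (266 and 422 of 10763 over all genes). Yet only 2 (9.09%, against 2.26% over all genes) passed the test of the difference itself. Gjb1, the gap junction protein connexin 32, stood at 896, 1032, 665, 739.8 and 739 at 3 days and 344, 417, 232, 110.4 and 293 at 1 week on the crushed side, with a difference of -1.62 ± 0.37 (adjusted p = 0.0109) that was lost without the photoreceptor-rich pairs (-1.37, adjusted p = 0.0768). Hapln2, a link protein of nodes of Ranvier, had one of -1.17 that was lost under 15 of 21 alternatives (adjusted p up to 0.182), and its second probe set was not called. No gene of 8 oligodendrocyte precursor genes was called, and Cspg4, the proteoglycan NG2, had the lowest p at -0.99 ± 0.24 (adjusted p = 0.0147), just under 2-fold. The same was true of 5 measured Schwann cell genes, led by Pou3f1 at -0.87 ± 0.34 (adjusted p = 0.112).

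Endothelial genes lay above the contralateral side at 3 days and near it at 1 week, with medians of 0.65 and 0.10. Of 23 measured, 22 had a difference below 0 (58.8% were over all genes), and 3 were called lower (against 2.26% over all genes). Apln, the peptide apelin of vessel tips, stood at 1632, 1060, 1034, 737 and 909 in crushed ONHs at 3 days and at 485, 294, 422, 192 and 332 at 1 week, below all contralateral samples (678 to 1229). Its difference was -1.45 ± 0.33 (adjusted p = 0.0103), and it was lost without the photoreceptor-rich pairs (-1.31, adjusted p = 0.0673). Egfl7, a secreted factor of sprouting endothelium, went from a range of 1270 to 2027 at 3 days to one of 588 to 1175 at 1 week with a difference of -1.20 ± 0.22 (adjusted p = 0.00289), although 1 of its other 3 probe sets gave a difference near 0. Vwf, von Willebrand factor, had one of -1.02 that was lost under 10 of 21 alternatives (adjusted p up to 0.0941). Without the photoreceptor-rich pairs 7 endothelial genes were called lower, and with the covariate 5. None of 15 genes of pericytes and smooth muscle passed, and the muscle actin Acta2 had the lowest p at -0.45 ± 0.19 (adjusted p = 0.145).

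**Figure D4:**
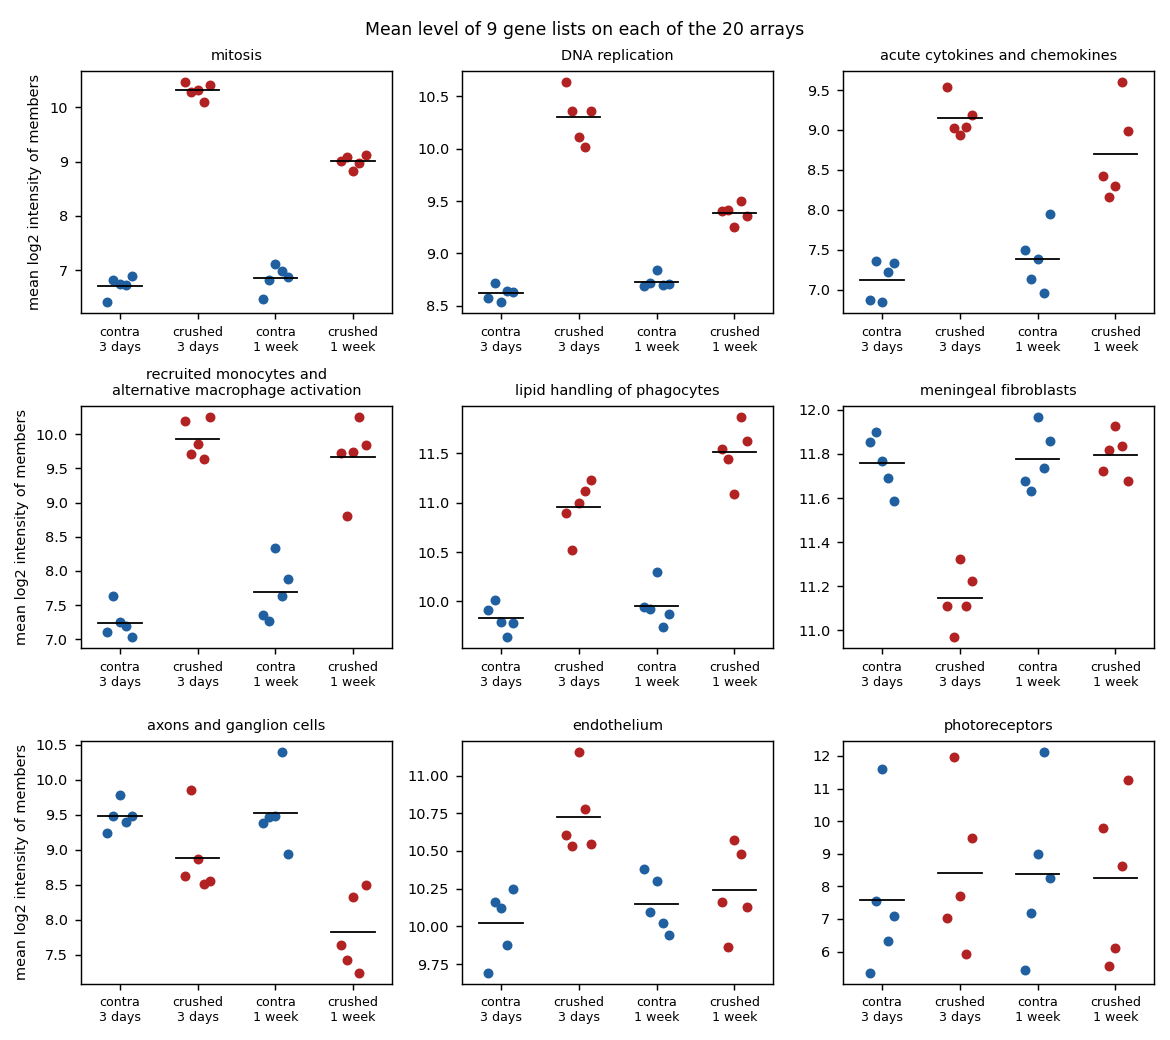
Mean log2 intensity of the tested members of 9 gene lists (y axis) on each of the 20 arrays, with contralateral (contra) samples in blue, crushed samples in red and a bar at the mean of 5. For mitosis, DNA replication and meningeal fibroblasts the crushed samples at 3 days and at 1 week do not overlap. Those of axons and ganglion cells narrowly do not either (lowest 8.51 at 3 days, highest 8.50 at 1 week). The photoreceptor level varies by over 5 log2 units within every group.

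Genes of meningeal fibroblasts lay below the contralateral side at 3 days and level with it at 1 week. According to the study's methods, sclera and meningeal sheath were removed from the ONHs. Which cells these transcripts came from was not tested. The mean log2 level of 15 measured genes was 10.97 to 11.32 in crushed ONHs at 3 days, below every contralateral sample (11.59 to 11.90), and 11.68 to 11.93 at 1 week, within the contralateral range of 11.63 to 11.97. Of the 15, Slc47a1, Dpt and Igf2 passed, all with a higher effect (20%, against 0.938% over all genes). Dpt, the matrix protein dermatopontin, stood at 597, 417, 1982, 874 and 524 in crushed ONHs at 3 days and at 2458, 5934, 9043, 7873 and 4873 at 1 week, and its difference was 2.12 ± 0.52 (adjusted p = 0.0168). Igf2, insulin-like growth factor 2, stood at 2707, 2364, 2683, 1804 and 3075 and then at 6497, 5869, 5245, 6517 and 6222, against 5489 to 7079 and 6027 to 7397 on the contralateral side. The crushed samples were all lower at 3 days and within or just below the contralateral range at 1 week, with a difference of 1.27 ± 0.20 (adjusted p = 0.00124). Igf2 was also the only one of 11 measured genes of the IGF system that passed (9.09%, against 0.938% over all genes).

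Several matrix genes had a higher crush effect at 1 week. Ccn3, a matricellular protein of the CCN family, stood at 897, 515, 1053, 753 and 796 in crushed ONHs at 3 days and 3312, 2466, 5398, 2422 and 3806 at 1 week, while the contralateral range was 1187 to 1748 and then 750.5 to 1609. The difference was 2.28 ± 0.32 (adjusted p = 0.000433). None of the other 20 basement membrane and matricellular genes passed, so 4.76% of the list had a higher effect, against 0.938% over all genes. Smoc2, another matricellular protein, went from a range of 211 to 458 at 3 days to one of 1306 to 2587 at 1 week with a difference of 2.18 ± 0.35, and Mfap4, which binds elastic fibres, from a range of 272 to 1006 at 3 days to one of 2870 to 5873 at 1 week with one of 2.05 ± 0.43. Of 28 collagens and fibrillar matrix genes, 2 (7.14%, against 0.938% over all genes) had a higher effect and none a lower one. Eln, elastin, stood at 1324, 2827, 3710, 3050 and 3932 and then 6580, 6308, 7414, 8080 and 6855 in crushed ONHs, a difference of 1.27 ± 0.26 (adjusted p = 0.00646). At 3 days the crushed minus contralateral values of Eln were already 0.84 to 0.98 in all pairs but pair 1 (-0.05). Postn, periostin, had a difference of 1.19 that was lost under 5 of 21 alternatives (adjusted p up to 0.0746). Acan, the proteoglycan aggrecan, was dim, with crushed intensities of 33.3, 31.9, 41.6, 45.7 and 20.1 and then 81.4, 212, 58.4, 239.5 and 83.4. Its difference of 2.15 ± 0.48 was not called in a model of the 20 arrays alone (2.15, adjusted p = 0.0558).

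Among signalling genes Bmp5, a bone morphogenetic protein, was one of the 15 largest rises of genes whose pairs do not overlap. It stood at 125, 156, 94.7, 71.7 and 83.9 in crushed ONHs at 3 days, with all but 1 value below its partner, and at 638, 768, 513, 272 and 556 at 1 week, with all above. The difference was 2.60 ± 0.48 (adjusted p = 0.00265). In the same list of 25 TGF-beta, BMP and GDF genes Gdf5, a related ligand, was also higher at 1.45, and Inhba, the activin A chain, lower at -1.15. The list thus had 8% higher and 4% lower, against 0.938% and 2.26% over all genes. Gdf5 and Inhba lost their calls under 10 of 20 and 7 of 21 alternatives, with adjusted p of up to 0.0951 and 0.0984. Among 19 Wnt genes Lgr5, a receptor for R-spondins, was the only one called (5.26%, against 0.938% over all genes). It stood at 18.2, 91.6, 18, 7.04 and 6.53 in crushed ONHs at 3 days, 1 sample standing apart, and at 114, 251, 177, 271 and 153 at 1 week, a difference of 2.10 ± 0.47 that a model of the 20 arrays alone did not call (2.10, adjusted p = 0.0545). Of 24 guidance genes only Sema3c, a secreted semaphorin, was called (4.17%, against 0.938% over all genes). Its difference was 1.19, and the call was lost under 10 of 21 alternatives (adjusted p up to 0.107).

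Pcsk5, a protease that activates precursors of secreted proteins, went from below to above the contralateral side, with crushed intensities of 58.2, 70.3, 51.3, 59.9 and 40 and then 276, 260.5, 485, 278 and 224 and a difference of 2.32 ± 0.33 (adjusted p = 0.000433). Crispld1, a secreted protein, rose from a range of 93 to 188 at 3 days to one of 881 to 1541 at 1 week in crushed ONHs, a difference of 2.38 ± 0.43. Kcnj15, an inwardly rectifying potassium channel, stood at 37.1, 20.8, 64.4, 37.8 and 21.1 and then at 267, 202, 149, 242 and 256, while 9 of its 10 contralateral values lay under the floor. Its difference was 2.67 ± 0.38 (adjusted p = 0.000446). The casein gene Csn1s2a, with all 10 contralateral values under the floor, had a difference of 2.08 ± 0.35 and reached 285 to 451 in crushed ONHs at 1 week. The glycosyltransferase Mgat4c had one of 2.08 ± 0.46 and reached 247 to 407. Scgb1a1, a secretoglobin known from airway club cells, stood at 20.6, 11.9, 16.9, 33.9 and 25 in crushed ONHs at 3 days and at 496, 111, 107, 768 and 832 at 1 week, with 3 samples far above the other 2. Its difference was 3.35 ± 0.55 (adjusted p = 0.00134), and its crush effect was back to 0.68 at 3 weeks, whereas that of Kcnj15 was still 3.08.

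The crush effect rose for 3 genes of lipid handling in phagocytes. Of 26 measured, 3 (11.5%, against 0.938% over all genes) had a higher effect and none a lower one. The median effect went from 0.79 to 1.36, but the median of the 26 differences was only 0.21, with 17 above 0 and 9 below. Apoc1, an apolipoprotein, stood at 136, 115, 105, 247 and 365 in crushed ONHs at 3 days, on both sides of the contralateral values, and at 898, 1058, 1340, 1731 and 728 at 1 week, above all of them. The difference was 3.12 ± 0.33 (adjusted p = 3.09e-05). Apoc4, which lies in the same gene cluster, stood at 92.9, 31.2, 69, 106 and 124 and then at 467, 656, 166, 504 and 392, a difference of 2.48 ± 0.43 (adjusted p = 0.00205). The crush effects on Apoc1 and Apoc4 were still 2.98 and 4.19 at 3 weeks. Cst7, the protease inhibitor cystatin F, stood at 276, 177, 354.5, 353 and 421 in crushed ONHs at 3 days and at 579.5, 1136, 301, 698 and 968 at 1 week. Its contralateral values were 845, 480, 253, 231 and 278 and then 201, 355, 230, 156 and 142.5, with a naïve range of 128 to 214. Its difference of 1.98 ± 0.53 thus came in part from the contralateral side. The call was lost without pair 1 (1.64, adjusted p = 0.0651) or pair 2 at 3 days (1.68, adjusted p = 0.0574). It was also lost without the photoreceptor-rich pairs (1.33, adjusted p = 0.171) and in a model of the 20 arrays alone (1.98, adjusted p = 0.0618).

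Of 27 measured markers of microglia and macrophages, 20 had a difference above 0 (41.2% were over all genes), with a median of 0.14. Only 1 was called (3.70%, against 0.938% over all genes), with a higher effect. This was Cybb, the catalytic subunit of the phagocyte NADPH oxidase. It stood at 308, 236, 529, 448 and 318 in crushed ONHs at 3 days and at 843, 695, 426, 1256 and 945 at 1 week, and its difference was 1.54 ± 0.32 (adjusted p = 0.00667), although the crushed sample of pair 3 at 1 week lay within the crushed range at 3 days, and the pair difference of pair 5 (2.29) within that of the pairs at 3 days (0.37 to 2.43). Among 9 genes of resting microglia only the receptor Gpr34 was called (11.1%, against 0.938% over all genes). Its crushed intensities were 612, 474, 589, 787 and 527, all below the contralateral ones at 3 days, and 2123, 1906, 1303, 1821 and 1851, all above them at 1 week. The difference was 1.53 ± 0.31 (adjusted p = 0.00505). Tlr8, an endosomal receptor for RNA, was the only one of 10 Toll-like receptors and adaptors called (10%, against 0.938% over all genes). Its difference was 1.11, and it lost the call under 8 of 20 alternatives (adjusted p up to 0.36). None of 31 lysosomal, 11 complement, 6 MHC class II, 9 MHC class I and 25 interferon-stimulated genes was called. The members with the lowest p in these lists were Asah1 at 0.28, Cfp at -0.96, Ciita at 0.78, H2-K1 at 0.30 and Gbp3 at 0.51.

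Of 16 measured T and NK cell genes, 2 (12.5%, against 0.938% over all genes) had a higher effect and none a lower one, and 14 differences were above 0 (41.2% were over all genes), while the median effect was 0.33 at 3 days and 1.04 at 1 week. Cd28, the costimulatory receptor of T cells, stood at 189, 66.2, 343, 489 and 471 in crushed ONHs at 3 days and at 1506, 722, 373, 1387 and 1327 at 1 week, and contralateral values were at most 57.1. The crushed sample of pair 3 at 1 week lay within the range at 3 days. Its difference of 2.29 ± 0.52 (adjusted p = 0.0109) was not called in a model of the 20 arrays alone (2.29, adjusted p = 0.0598). Cd3g, a subunit of the T cell receptor complex, stood at 44.8, 27.4, 32.6, 63.6 and 28.7 and then at 111, 135, 98.5, 151 and 122, a difference of 1.75 ± 0.45. This call was lost without pair 5 at 3 days (1.60, adjusted p = 0.051), without pair 3 at 1 week (1.58, adjusted p = 0.0504) and in the model of the 20 arrays (1.75, adjusted p = 0.0521). None of 5 B cell genes was called, although 1 of 4 probe sets of the immunoglobulin gene Ighm was.

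Among 12 chemokines of lymphocytes and homeostasis Cxcl13, which attracts B cells, had a higher effect and Ccl5, which attracts T cells, a lower one. Each is 8.33% of the list, against 0.938% higher and 2.26% lower over all genes. Cxcl13 stood at 93.4, 97.9, 161, 50.7 and 22.4 in crushed against 2585, 1109, 535, 453 and 366 in contralateral ONHs at 3 days, and at 449, 83.3, 459, 318 and 503 against 191, 471, 398, 589.8 and 454 at 1 week. The crush effect of -3.44 at 3 days was -0.36 at 1 week, a difference of 3.08 ± 0.78 (adjusted p = 0.0182). The contralateral values of pairs 1 and 2 at 3 days lay above the naïve range of 426.6 to 631.5. The difference thus came in part from the contralateral side. Without pair 1 at 1 week it was not called (2.68, adjusted p = 0.0548). The call of Ccl5, at -1.34, was lost under 14 of 21 alternatives (adjusted p up to 0.131).

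**Figure D5:**
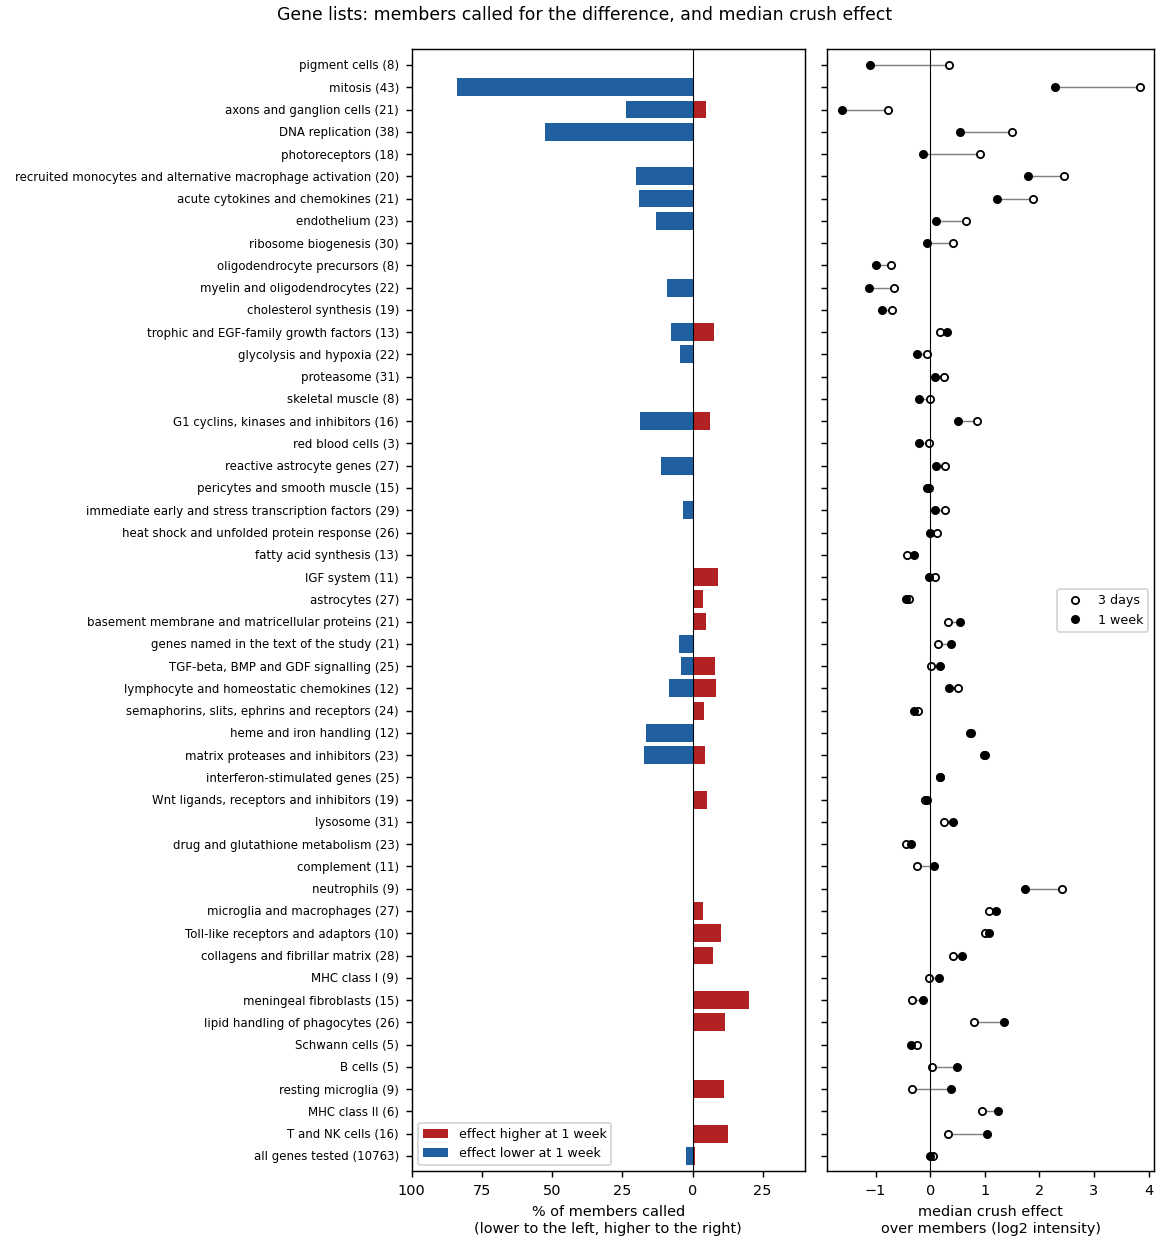
The left panel gives the percentage of tested members of each gene list (number in parentheses) called with a higher (red) or lower (blue) crush effect at 1 week, and the right panel the median crush effect over members at 3 days (open) and 1 week (filled), in log2 intensity. Mitosis and DNA replication have the largest shares, at 36 of 43 and 20 of 38, against 2.26% lower and 0.938% higher over all genes.

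In some lists most differences were below 0 with no or few members called. Over all genes tested 6327 of 10763 (58.8%) were below 0, and the median of all probe sets, -0.046, became 0.013 with quantile normalization and 0.025 with equal array medians. Of 30 ribosome biogenesis genes, 27 had a difference below 0, with a median of -0.45, but none was called. Nop56, a nucleolar protein, had a difference of -0.96 ± 0.14 with an adjusted p of 0.000433, and its crushed intensities were 2165, 2122, 1439, 1642 and 1967 at 3 days and 1006, 1114, 1116, 1329 and 976 at 1 week. Of 31 proteasome genes, 28 were below 0, led by Psmd4 at -0.48 ± 0.10 (adjusted p = 0.00646). Cholesterol synthesis had 16 of 19 below 0, and Fdft1, which encodes squalene synthase, had a difference of -0.96 ± 0.19 (adjusted p = 0.00449). For 22 genes of glycolysis and hypoxia the lactate transporter Slc16a3 was the only one called (4.55%, against 2.26% over all genes). Its difference was -1.04, and it lost its call under 13 of 21 alternatives (adjusted p up to 0.103). No member passed among 26 heat shock and unfolded protein genes, 13 of fatty acid synthesis and 23 of drug and glutathione metabolism, whose leading members were Hsph1 at -0.32, Acly at -0.27 and Gsta4 at -0.43. The same held for 8 skeletal muscle genes, 3 red blood cell genes and 8 pigment cell genes, led by Tnni2 at 0.99, Slc4a1 at 0.27 and Rpe65 at -1.80. All 8 pigment genes and 17 of 18 photoreceptor genes had a difference below 0, with medians of -1.51 and -0.98. The pigment level was 8.78 to 10.47 in crushed ONHs at 3 days and 7.94 to 9.27 at 1 week, and its part in the results was not tested.

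Astrocyte genes stayed below the contralateral side to a like degree, with medians of -0.38 and -0.45 over 27 measured members. The only call was Ntsr2 (3.70%, against 0.938% called higher over all genes), with a crush effect of -4.77 at 3 days. Its crushed intensities of 78.3, 74.3, 82.9, 66 and 28.7 became 183, 297, 169, 133 and 155 at 1 week, still far below the contralateral 1468 to 2374. The difference was 1.39 ± 0.32 (adjusted p = 0.0112). A list of 21 genes was taken from the study's text, where they were picked on these samples and are no independent evidence of direction. Of these only Mmp9 was called (4.76%, against 2.26% called lower over all genes), and 3 genes were without the photoreceptor-rich pairs. The list does not hold every gene named there, and Il6, Ccl5, Bmp5, Gdf5 and Gap43, described above as called, are among those it leaves out. The others include Gfap at -0.26 ± 0.13, Vim at -0.08 ± 0.08, Aqp4 at 0.29 ± 0.18, Gja1 at -0.02 ± 0.12, Gjb6 at 0.33 ± 0.24 and Astn1 at 0.14 ± 0.31. The progenitor filament Nes had a difference of -0.92 ± 0.25 and an adjusted p of 0.027, just short of 2-fold, and 1 of its other 2 probe sets was called. Timp1, an inhibitor of metalloproteases, was at -0.56 ± 0.17 (adjusted p = 0.0387), and Thbs1, thrombospondin 1, at -1.36 ± 0.54 (adjusted p = 0.118). The myeloid genes Cd68, Itgam and Aif1 were at 0.03 ± 0.23, 0.26 ± 0.27 and 0.70 ± 0.31, the myelin genes Mbp and Mog at -0.24 ± 0.11 and -0.77 ± 0.33, and Tnc, Lamb1, Tgfb1, Tnf, Itgb5 and Cntn1 between -0.75 and 0.37.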

How the data were processed

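RNA of mouse optic nerve heads was hybridised to 1-colour Affymetrix 430A 2.0 arrays, and the deposited intensity values are those the authors made with dChip, which scaled arrays with an invariant set of probe sets and summarised perfect match minus mismatch differences. The tools' versions are not given in the sources used here. Depth has no count equivalent, and the number of arrays limits the precision. Of 22690 probe sets, 64 controls were left out. Values were floored at 20, which 10.4% of the values on the 20 arrays lay under, and taken to log2, and probe sets with at least 5 of 40 arrays at 50 or more were tested.

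The difference was fitted with limma 3.58.1 (R 4.3.3) on the 40 arrays of pairs at all 4 times, with each pair as a block, a crush term for each time and a trended prior, so that the other times share the estimate of the spread. Single sides were fitted on 45 arrays with a mean per group. SE are those of the fit (5 pairs at each time) and measure the spread between pools of 2 mice, and adjusted p-values are Benjamini-Hochberg values over all probe sets tested. The study's methods combine the left and the right eyes of the same mice into a pair of samples and compare them as pairs, which is why the block was used. Samples were matched by replicate number, which the sources used here do not tie to the same mice. The correlations of the deviations of paired samples from their group means were 0.24, -0.26, -0.30, 0.14 and -0.20 at 3 days and -0.30, 0.38, 0.15, -0.32 and -0.12 at 1 week, with 6 of 10 below 0, while samples of unequal number reached 0.697 and 0.775. In 1 of 10 pairs the own correlation was the highest. A gene was represented by the brightest of its probe sets with 1 symbol, and 20380 probe sets carried 1 symbol, 691 several and 1555 none. The fit was tested on simulated data.

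The genes named are those called whose pairs do not overlap between the times (the 15 largest in each direction), up to 4 called members of each of 49 gene lists or the member with the lowest p, and 21 genes taken from the study's text. The comparison and the lists were chosen with earlier results of these data known. Alternatives were a floor of 50, no floor (log2 of the intensity plus 1), no filter or a stricter one, quantile and median scaling, no trend, no block, the 20 arrays alone, probe sets averaged by gene (list counts), each pair left out, and, chosen after seeing the data, the photoreceptor level as a covariate and the 4 pairs with a photoreceptor-rich array (mean log2 over 11) left out. Promoter sequences came from RefSeq, build GRCm38.p6.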

Additional observations from a re-analysis of the deposited data

Results flagged for a closer look

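In 12 of 236 groups of 5 pair values of named genes (5.08%), 1 pair stood apart from the other 4 by more than Dixon's test allows, and chance alone gives about 1 in 20 such groups. At 3 days these crushed minus contralateral log2 values were -0.80 for Slc47a1 (pair 4), 0.22 for Cd28 (pair 2), -0.052 for Eln (pair 1), 2.23 for Serpinb2 (pair 3), 2.20 for Lgr5 (pair 2) and 1.17 for Cspg4 (pair 5). At 1 week they were 1.16 for Ighm (pair 4), 1.95 for Mmp23 (pair 4), 1.12 for Gdf5 (pair 3), 0.88 for Egfl7 (pair 4), -0.63 for Mbp (pair 4) and -0.16 for Vim (pair 2).

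The crush effect differed between the times by the test of the difference itself for 602 probe sets. Slc47a1 was called lower at 3 days and higher at 1 week (difference 3.93), and Gpd1 was called higher at 3 days and lower at 1 week (-2.61).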

How the results depend on the processing

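The count of 602 ranged from 440 (the 20 arrays alone) to 849 (323 higher and 526 lower, without the 4 photoreceptor-rich pairs, a choice made after seeing the data), and leaving out 1 pair gave 464 to 772. Without the replicate block, so that the pairing was not used, 623 probe sets were called for the difference, 1698 at 3 days and 1875 at 1 week, and no named gene changed its call except Ccl5 and Hapln2. Quantile normalization gave 243 higher and 346 lower. The contralateral count of 11 was 6 without the photoreceptor-rich pairs and 6 to 41 without 1 pair, the 41 (23 higher and 18 lower) arising without pair 2 at 1 week. Of 78 named genes called, 50 kept the call under every alternative planned at the start and 28 lost it under at least 1. None of the 78 changed direction under any alternative run, an outcome made likely by their selection for size and adjusted p. Of the genes without a call, 9 changed sign. The difference was -0.058 for Slc4a1 with a floor of 50. With quantile normalization it was 0.10 for Gja1, 0.0037 for Lamb1 and 0.010 for Vim, and 0.051 for Gja1 with equal medians. With the photoreceptor covariate it was -0.0045 for Cd68, and without the photoreceptor-rich pairs 0.11 for Gja1, -0.26 for Tnf, -0.38 for Cd68 and 0.32 for Cntn1. Leaving out 1 pair moved Gja1 from -0.090 to 0.062, Tnc from -0.24 to 0.054, Astn1 from -0.052 to 0.30, Lamb1 from -0.23 to 0.038, Cd68 from -0.13 to 0.20 and Cntn1 from -0.32 to 0.20. The causes were not tested. Values under the floor have no order, which limits Lgr5, Il6, Serpinb2, Prtn3, Csn1s2a, Kcnj15, Tlr8, Ndc80, Scgb1a1, Fosl1, Prss22 and Sptbn4, each with 5 to 11 of 20 values there.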

Other observations

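On the contralateral side alone, 11 probe sets differed between 1 week and 3 days. Tnfrsf12a, the receptor of the cytokine TWEAK, shifted by -1.28 in contralateral ONHs (adjusted p = 0.000368, limma), with mean intensities of 1356 at 3 days and 551 at 1 week, and crushed ONHs went from 2208 to 830. Slc39a14, a zinc and iron transporter, had contralateral means of 2322 and 1035 (-1.20, adjusted p = 3.11e-05) and crushed means of 2104 and 1039. Arntl, a core transcription factor of the circadian clock, had contralateral means of 1381 and 715 (-1.15, adjusted p = 0.0246) and crushed means of 1347 and 724. Spon2, which encodes a matrix protein, had contralateral means of 255 and 78.0 (-1.73, adjusted p = 0.0332) and crushed means of 484 and 495. These genes were named after their values were seen.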
